A study of Trichoderma atroviride with 42 samples.

Results

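Injury by scalpel was set against feeding by the collembolan Orthonychiurus folsomi in mycelium of the fungus Trichoderma atroviride, 30 min after each treatment. The comparison takes 6 of the 42 RNA-seq libraries of the study, chosen by their labels alone: the 3 injured libraries (MI_30min) and the 3 libraries of mycelium grazed by O. folsomi (Of_30min). All were made from the wild type strain, grown for 36 h in the dark at 27 °C on cellophane over potato dextrose agar. Injured mycelium was cut over the whole colony with a sterile scalpel. Grazed mycelium carried the animals for 10 min in the dark before they were lifted off with forceps, so a contact period, an animal and a form of damage differ between the groups and cannot be told apart. Neither the number of animals nor the extent of the damage is stated by the labels. Untreated mycelium, opened for 2 min in the dark, gave the background level in 3 early (CT0) and 3 late (CT8, 8 h) control libraries. CT0 is labelled time 0, although the design text places the early control at 30 min. For some genes the level is also given in 3 libraries of mycelium grazed by Drosophila melanogaster larvae. These had 10 min of contact and are labelled 30 min (Dm_30min). Libraries are described as independent biological replicates, each a pool of technical replicates, with 3 per group.

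A cut hypha loses cytoplasm, and neighbouring cells perceive released molecules, calcium entry and reactive oxygen as signs of damage. In Trichoderma such injury is known to set off a burst of transcription and the regrowth of hyphae, with oxidised lipids among the signals. Fungivores wound hyphae as well, and add secretions, movement and removal of tissue to the wound. The comparison asks how far the transcriptome 30 min after a pure cut departs from that after collembolan grazing.

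The 6 libraries held 3098906 to 4286630 counts after injury and 1484486 to 3158121 counts after grazing. One gene without a product text, Tatro_002410, took 3.05%, 3.13% and 0.291% of the counts of the injured libraries, against 12.5%, 4.61% and 4.8% of the grazed ones. Pearson correlations of log2 CPM (read counts scaled to library size) were 0.987 to 0.989 among injured libraries, 0.979 to 0.987 among grazed libraries and 0.928 to 0.94 between the groups. Transcripts that mark growing mycelium were abundant in both groups, with the actin gene Tatro_010755 at 2069 ± 53.9 CPM after injury and 4236 ± 235 CPM after grazing (SD, n = 3 each). The hydrophobin gene Tatro_007246, of a family of proteins that coat aerial hyphae and spores, was near 0 in both, at 1.15 ± 1.01 and 1.89 ± 1.12 CPM. The velvet genes, set with it as markers of conidiation (spore formation), were expressed in both groups and lower after injury. Tatro_008706 had 42.0 ± 5.02 CPM after injury and 80.3 ± 10.8 CPM after grazing, and Tatro_010137 had 73.2 ± 8.03 and 122 ± 2.02 CPM. Genes are named by the Tatro identifiers of the count table without its suffix -T1, and functions by the protein family text that the authors' deposited tables give.

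Injury and grazing left the transcriptome far apart at 30 min. Of 9193 genes tested, 4205 differed at an adjusted p under 0.05 (45.7%, edgeR quasi-likelihood test with Benjamini-Hochberg adjustment), 2058 of them higher after injury (22.4%) and 2147 lower (23.4%). The difference was at least 2-fold for 663 higher (7.21%) and 551 lower genes (5.99%), together 13.2% of those tested. For 5402 genes (58.8%) the 3 libraries of the groups did not overlap, and 4071 of these were called (44.3% of those tested). In bulk RNA, fewer cells of a type and less RNA per cell cannot be told apart. Scaled by library totals alone, the median of all genes lay 0.17 higher on the log2 scale and the calls were 2736 higher and 1396 lower, or 66.2% higher against 48.9%. With Tatro_002410 left out they were 2211 higher and 2007 lower. Set against CT0, which both comparisons share, 4253 genes differed after injury (46.3%, of which 22.5% higher and 23.8% lower) and 910 after grazing (9.9%, of which 6.2% higher and 3.7% lower). The count for grazing was 546 without CT0 replicate 3 and 560, 438 and 445 without Of_30min replicates 1, 2 and 3.

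**Figure D1:**
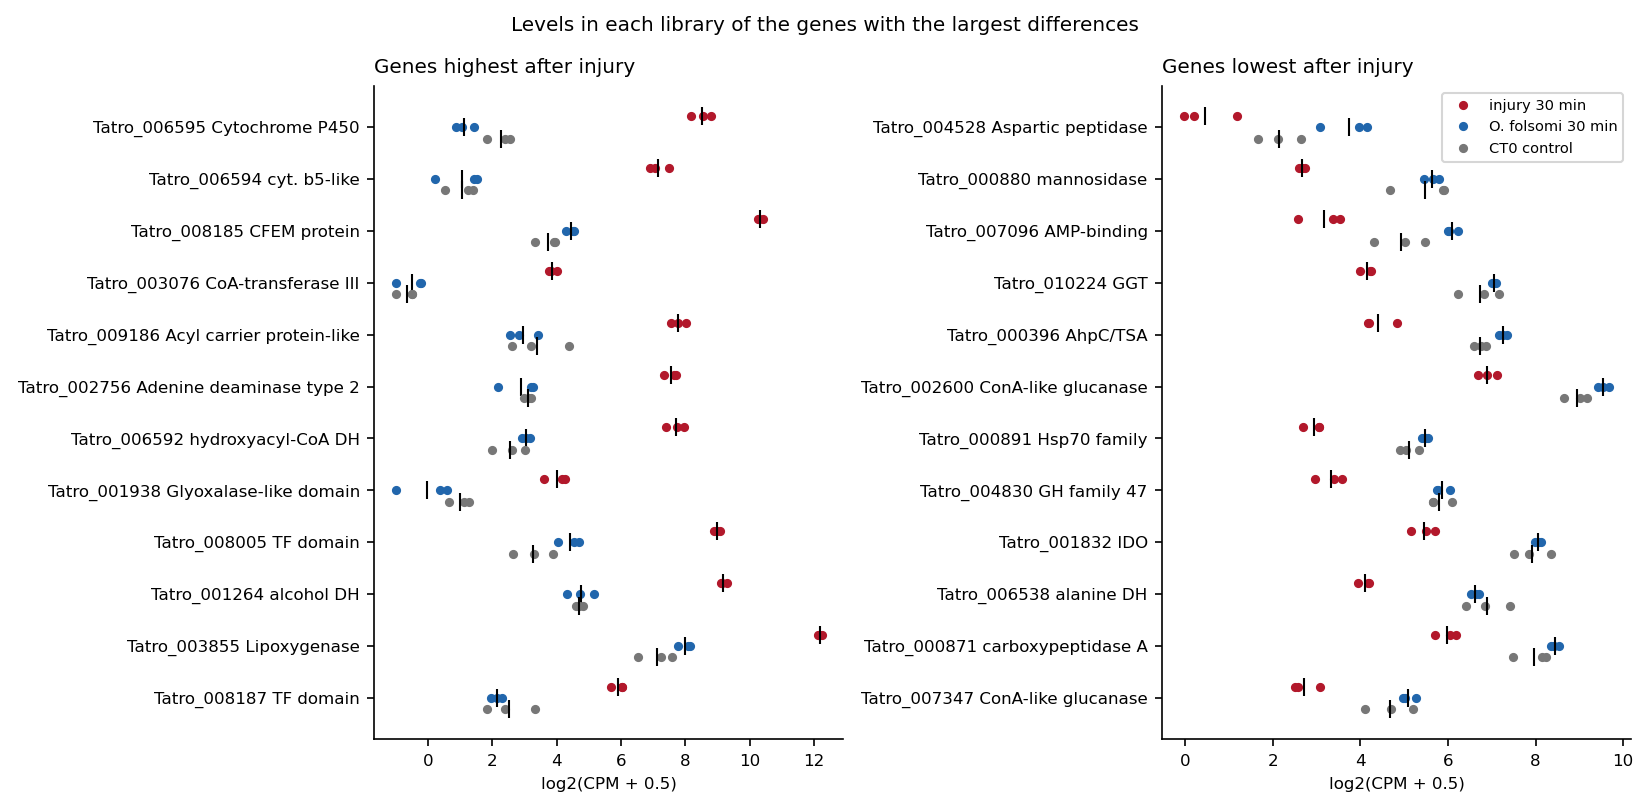
Expression in each library (log2 of CPM + 0.5, horizontal axis) of the 12 genes with the largest rises (left) and 12 with the largest falls (right) after injury among called, non-overlapping genes with a product text; red, blue and grey points are injured, O. folsomi and CT0 libraries and black ticks their means. For each gene all 3 injured points lie apart from all 3 grazed points, which lie nearer to the CT0 points than the injured ones do for most genes.

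The 12 genes with the largest rises after injury included enzymes, a surface protein and a pair of transcription factors. They were taken from called genes whose injured and grazed libraries did not overlap, so that separation is no finding of its own. A cytochrome P450, Tatro_006595, of a family of haem enzymes that insert oxygen into substrates, stood at 447, 288 and 372 CPM after injury, against 1.58, 2.22 and 1.35 CPM after grazing. The log2 difference was 7.71 ± 0.63 (SE), a fitted 209-fold, with an adjusted p of 1.6e-12. Its neighbour in number, the cytochrome b5-like Tatro_006594, whose family passes electrons to such oxygenases, had 179, 118 and 132 CPM after injury and 2.37, 2.22 and 0.673 CPM after grazing (log2 difference 6.45 ± 0.62, adjusted p = 6.7e-11). In both genes every injured library was far above every grazed one, and the grazed libraries were as low as untreated mycelium, where the CT0 means were 4.43 and 1.66 CPM.

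The bifunctional P450/P450 reductase gene Tatro_009076, which joins an oxygenase to its own electron donor, had 1092, 814 and 806 CPM after injury and 74.1, 75.4 and 74.8 CPM after grazing. Its log2 difference was 3.59 ± 0.30 (adjusted p = 3.9e-12). The rise was not general in the family: of 32 tested P450 and b5 genes, 10 were higher after injury and 15 lower, with a median log2 difference of -0.34, beside 0.00 over all genes tested.

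Lipoxygenase oxidises polyunsaturated fatty acids into precursors of oxylipins, and its gene Tatro_003855 was the most abundant of the 12 genes with the largest rises. It reached 4447, 4595 and 4812 CPM after injury, against 218, 272 and 283 CPM after grazing. The log2 difference was 4.16 ± 0.30, a fitted 17.8-fold (adjusted p = 9e-14), and all injured libraries were above all grazed ones. Grazing by O. folsomi stood above the early control CT0 at 144 CPM, by a log2 difference of 0.88 (edgeR, adjusted p = 0.041). The late control CT8 had 246, 192 and 264 CPM, which overlapped the grazed libraries, so this rise depends on the control. The libraries grazed by Drosophila melanogaster larvae, also taken at 30 min, averaged 5426 CPM, a level named here as a description. Singly they had 7711, 3274 and 5293 CPM, on both sides of the injured libraries.

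Among the other lipid genes, the acyl transferase and lysophospholipase family gene Tatro_006086 had 109, 106 and 101 CPM after injury and 12.6, 9.24 and 8.75 CPM after grazing (log2 difference 3.43 ± 0.24). The phospholipase A2 gene Tatro_010771, of a family that releases fatty acids from membranes, was lower, with 20.1, 32.9 and 34.7 CPM after injury and 123, 109 and 124 CPM after grazing (-1.99 ± 0.25, adjusted p = 2.6e-08). Of 19 tested lipoxygenase, lipase and lipid signalling genes 9 were higher and 9 lower, so the list as a whole had no single direction.

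Several other metabolic genes were near absent after grazing. The CoA-transferase gene Tatro_003076 gave 167 counts over the injured libraries and 2 over the grazed ones, a depth-scaled ratio of 49.0 with a 95% exact counting interval of 13.4 to 408. That interval covers the counting noise of the pooled counts and leaves out the spread between libraries. The acyl carrier protein-like gene Tatro_009186 had 258, 186 and 219 CPM after injury and 10.3, 6.65 and 5.39 CPM after grazing (log2 difference 5.0 ± 0.42). It was alone in its list: 1 of 12 acyl carrier and polyketide-type genes was higher, 4 were lower and 7 were not called.

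Adenine deaminase, which converts adenine to hypoxanthine, was encoded by Tatro_002756 at 199, 162 and 209 CPM after injury and 8.68, 4.07 and 9.09 CPM after grazing (log2 difference 4.74 ± 0.33). The alcohol dehydrogenase gene Tatro_001264 had 634, 556 and 558 CPM after injury and 19.7, 26.2 and 35.7 CPM after grazing (4.36 ± 0.40). The glyoxalase-like gene Tatro_001938, of a family that clears reactive aldehydes, had 17.5, 11.8 and 18.6 CPM after injury and 0.789, 0 and 1.01 CPM after grazing (4.71 ± 0.47). For each of these 3 genes the grazed libraries lay at or close to the CT0 level, with CT0 means of 8.16, 25.7 and 1.55 CPM.

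Genes for surface proteins moved in both directions. The CFEM protein gene Tatro_008185, of a fungal family of cysteine-rich extracellular membrane proteins, had 1369, 1244 and 1217 CPM after injury and 22.9, 19.2 and 22.2 CPM after grazing. Its log2 difference of 5.91 ± 0.29 was a fitted 60.0-fold (adjusted p = 1.6e-18), and the larva-grazed libraries averaged 335 CPM. A second CFEM gene, Tatro_000302, had 255, 244 and 274 CPM after injury and 48.1, 45.5 and 47.5 CPM after grazing (2.46 ± 0.17). Other members of the family ran the other way, with log2 differences of -1.42 for Tatro_005943, -1.49 for Tatro_000363 (adjusted p = 0.032) and -0.41 for Tatro_003494 (adjusted p = 0.023). The calls of Tatro_000363 and Tatro_003494 were lost with totals alone (-1.32 and -0.24) and when 5 and 3 of the 6 libraries, one at a time, were left out. The CT0 mean of Tatro_000363 was 429 CPM, far above the 39.9, 33.4 and 33.4 CPM after injury and the 89.9, 108 and 98.7 CPM after grazing, so both treated groups lay under the untreated level.

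**Figure D2:**
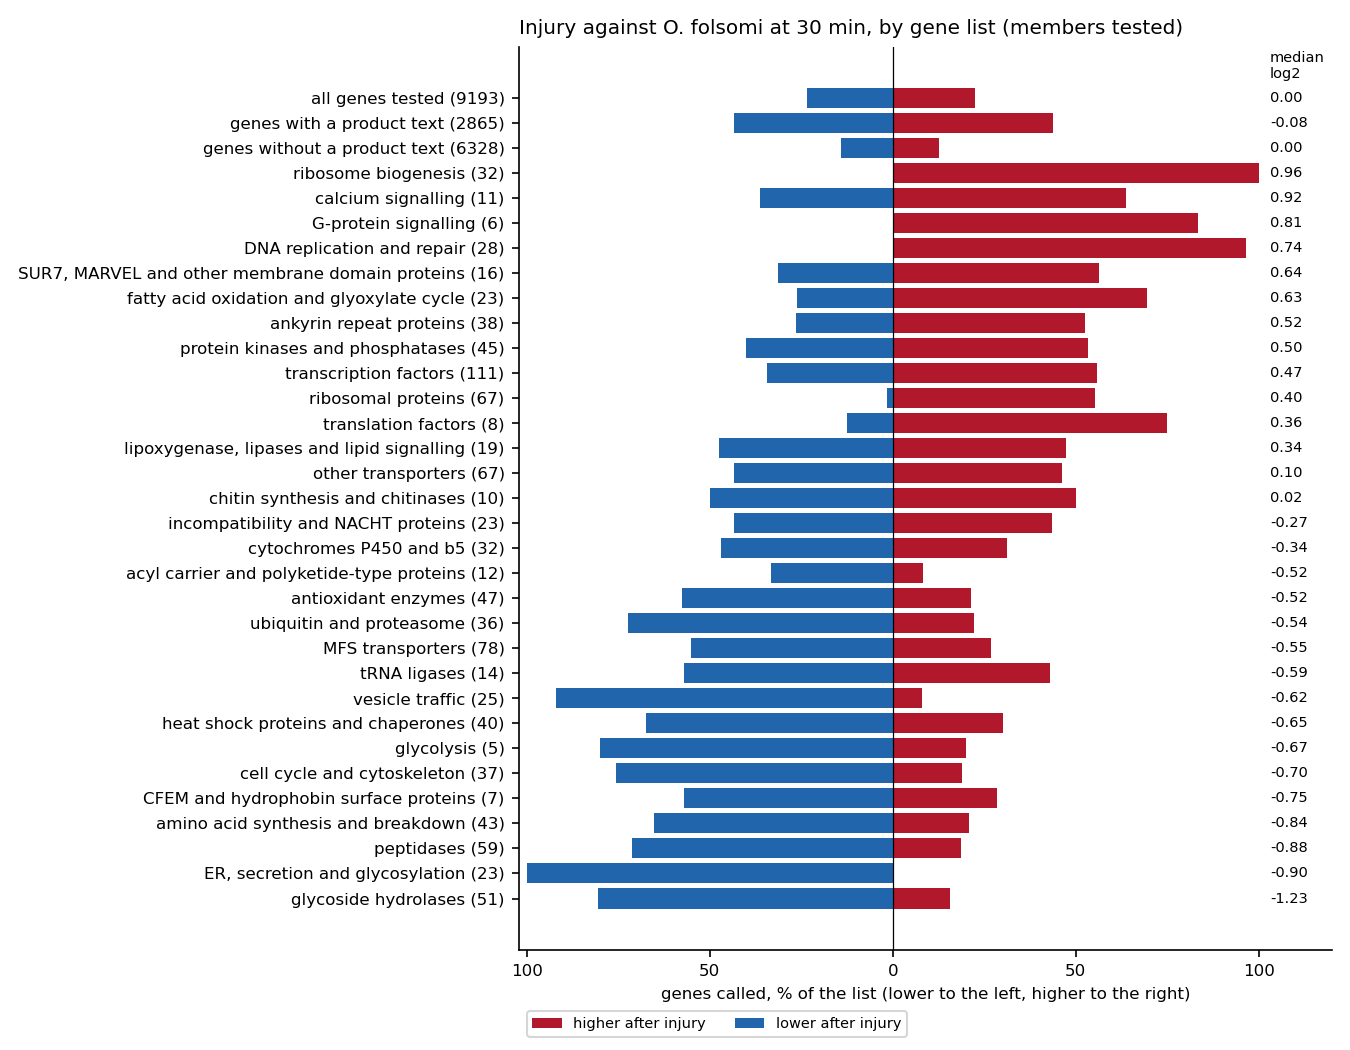
Share of each gene list called higher (red, to the right) and lower (blue, to the left) after injury than after O. folsomi grazing, in % of the members tested (number in parentheses), with the median log2 difference at the right. The ribosome biogenesis bar fills the higher side at 100% and the ER and secretion bar the lower side at 100%, while all genes tested are split 22.4% to 23.4%.

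The product texts used to build gene lists come from the authors' deposited table for injury at 30 min, whose genes were selected on the same injured libraries. Of the 2865 tested genes with a text 87.2% were called (43.7% higher, 43.5% lower), against 27.0% of the 6328 without one (12.7% higher, 14.2% lower). A high share of calls in a list is therefore no independent evidence. The balance of directions is a description only, because it was measured in the same injured libraries that selected the genes. Genes without a text could not enter a list. The share of calls in each of the 30 lists is drawn in the bar plot of gene lists. Against CT0, 93.9% of the genes with a text were called after injury (47.3% higher, 46.6% lower) and 14.2% after grazing (9.08% higher, 5.17% lower).

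Genes that make ribosomes were higher after injury. All 32 genes of the ribosome biogenesis list were called higher, with log2 differences between 0.43 and 3.07 and a median of 0.96. Their summed level was 4035, 3967 and 4112 CPM after injury and 2279, 2274 and 2021 CPM after grazing. The grazed sums lay within the range of the untreated libraries, 1716 to 2450.4 CPM in CT0, while the injured sums lay above all of them.

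The largest rise of the list was that of Tatro_004946. Its text names the N-terminal part of SBDS, a protein that matures the large ribosomal subunit in yeast and animals. The gene had 104, 108 and 81.5 CPM after injury and 10.3, 11.5 and 12.5 CPM after grazing, a log2 difference of 3.07 ± 0.32 (adjusted p = 6.2e-10). Other members rose by smaller steps. The Urb2/Npa2 gene Tatro_005725, for a nucleolar protein of pre-rRNA processing, had 80.8, 88.6 and 96.6 CPM after injury and 31.5, 37.0 and 31.3 CPM after grazing (1.41 ± 0.19). Fibrillarin, the methyltransferase of box C/D nucleolar particles, was encoded by Tatro_010478 at 293, 278 and 305 CPM after injury and 168, 190 and 157 CPM after grazing (0.77 ± 0.18, adjusted p = 0.00064).

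The structural proteins of the ribosome followed to a smaller extent. Of 67 ribosomal protein genes 37 were higher after injury, 1 was lower and 29 were not called, with a median log2 difference of 0.40, and 59 were higher when libraries were scaled by totals alone. Their sums were 67545, 60449 and 63119.6 CPM after injury and 51338, 50370.2 and 48471 CPM after grazing, without overlap. Unlike those of ribosome biogenesis, the grazed sums also lay above all untreated libraries, at 40312 to 47419 CPM in CT0 and 40587 to 43119 CPM in CT8. The translation initiation factor IF6 gene Tatro_011308, which acts in large subunit maturation, was higher too (0.79 ± 0.12), as were 6 of 8 translation factor genes. The 14 tRNA ligase genes were all called but split, 6 higher and 8 lower. The class Ic ligase gene Tatro_002789 had 281, 242 and 269 CPM after injury and 671, 616 and 517 CPM after grazing (-1.18 ± 0.14). Its control means lay between, at 330.2 CPM in CT0 and 364 CPM in CT8, nearer to the injured libraries.

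DNA replication and repair genes were also higher after injury, in 27 of 28 genes tested, with none lower and a median log2 difference of 0.74. The summed level was 2551, 2658 and 2686 CPM after injury and 1528, 1468 and 1575 CPM after grazing. MRC1, a mediator of the replication checkpoint, was encoded by Tatro_009752 at 128, 129 and 133 CPM after injury and 46.5, 47.3 and 52.5 CPM after grazing (1.40 ± 0.12, adjusted p = 5e-12). Checkpoint and origin-firing genes had the largest differences, among them the Sld3 gene Tatro_005211 at 93.5, 99.9 and 88.8 CPM after injury against 33.9, 47.7 and 34.7 CPM after grazing (1.26 ± 0.13).

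The polymerase genes came next. The catalytic subunit gene of DNA polymerase alpha, Tatro_011319, had 158, 171 and 177 CPM after injury and 77.3, 71.7 and 74.1 CPM after grazing (1.18 ± 0.12). The sliding clamp PCNA, Tatro_007476, differed less, with 158, 173 and 163 CPM after injury and 110.4, 118 and 129 CPM after grazing (0.46 ± 0.12, adjusted p = 0.0017). Repair genes rose by similar amounts, 0.65 ± 0.14 for the Rad52 gene Tatro_009730 and 0.61 ± 0.16 for the Rad50 gene Tatro_000214, both of which act on broken DNA in yeast. The member without a call was a mismatch repair gene, Tatro_009920, at 4.22, 3.55 and 5.08 CPM after injury and 3.15, 1.48 and 2.69 CPM after grazing.

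Fatty acid oxidation and the glyoxylate cycle, which turn lipid carbon into sugar precursors in peroxisomes, were mostly higher after injury at this time. Of 23 genes 16 were higher, 6 lower and 1 not called, with a median log2 difference of 0.63. Their sums were 4198, 4103 and 3909.8 CPM after injury and 2756, 2945 and 2865 CPM after grazing. The 3-hydroxyacyl-CoA dehydrogenase gene Tatro_006592, a beta-oxidation enzyme and a near neighbour in number of the P450 gene above, led with 251, 169.8 and 214 CPM after injury and 7.1, 8.5 and 7.74 CPM after grazing (4.73 ± 0.36).

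Thiolase closes each turn of beta-oxidation, and the thiolase gene Tatro_007655 had 737, 718 and 656 CPM after injury and 299.7, 330 and 304 CPM after grazing (1.18 ± 0.12, adjusted p = 2.7e-10). Another thiolase gene, Tatro_001739, ran the other way with 325, 299 and 299 CPM after injury and 618, 583 and 607 CPM after grazing (-0.97 ± 0.11). Paralogs of a family thus differed in direction. The glyoxylate cycle enzymes were both higher: malate synthase, Tatro_001429, at 225, 210.3 and 186 CPM against 83.6, 102 and 101 CPM after grazing (1.10 ± 0.23), and isocitrate lyase, Tatro_011916, at 99, 113 and 111 CPM against 61.5, 81.3 and 68.4 CPM after grazing (0.60 ± 0.16). The peroxisome assembly genes Pex14 (Tatro_004834, 1.05 ± 0.10) and Pex16 (Tatro_004473, 1.07 ± 0.22) were higher as well, and the Pex19 gene Tatro_009757 was lower (-0.52 ± 0.11).

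**Figure D3:**
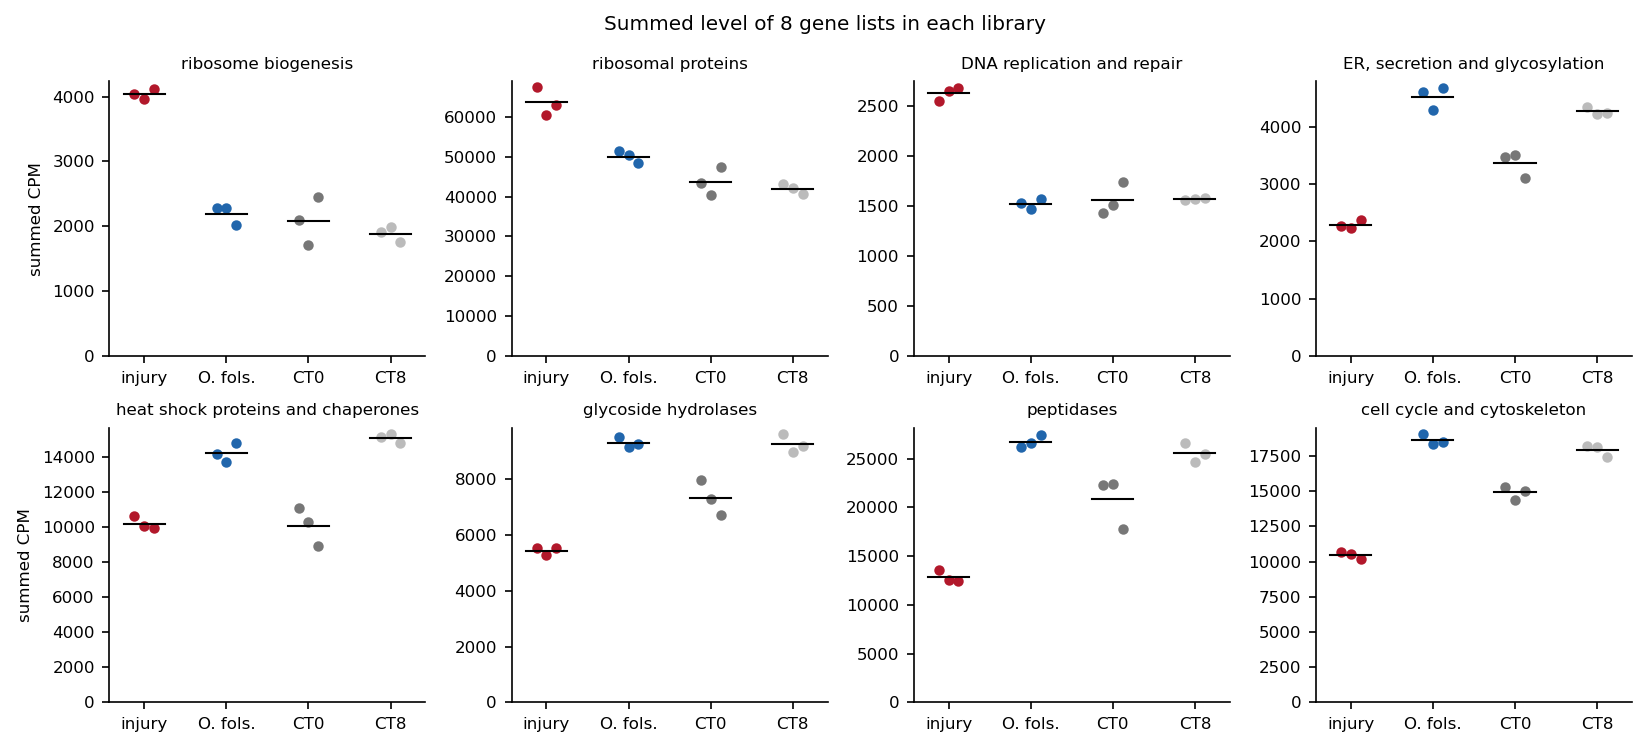
Summed CPM (vertical axis, from 0) of 8 gene lists in each injured (red), O. folsomi (blue), CT0 (dark grey) and CT8 (light grey) library at their own positions along the horizontal axis, with lines at the group means. Of the libraries drawn, the injured ones lie above all others for ribosome biogenesis, ribosomal proteins and DNA replication and repair, and below all others for the ER and secretion, glycoside hydrolase, peptidase and cytoskeleton lists.

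The listed genes of the endoplasmic reticulum (ER) and early secretion were lower after injury. All 23 genes tested were called lower, with log2 differences between -0.33 and -1.67 and a median of -0.90, and 21 were called lower when libraries were scaled by totals alone. The summed level was 2264, 2229 and 2371 CPM after injury and 4618, 4288 and 4671 CPM after grazing. The CT0 libraries lay between, at 3468, 3514 and 3111 CPM, and for 19 of the 23 genes the CT0 mean stood between the means of the treated groups. Against CT0 as a shared control, 21 of the 23 genes were lower after injury and 12 were higher after grazing. The late control CT8 lay nearer to the grazed libraries, with sums of 4339, 4222 and 4251 CPM that overlapped theirs, so the place of the grazed level relative to untreated mycelium depends on the control, while the injured sums were below both.

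The list covers the successive steps of protein entry and folding. For protein entry, the Sec62 gene Tatro_004030 had 82.5, 79.1 and 86.0 CPM after injury and 159, 163 and 181 CPM after grazing (-1.03 ± 0.11), and the signal peptidase gene Tatro_006037 had 47.7, 45.2 and 49.9 CPM after injury and 113, 107 and 112 CPM after grazing (-1.21 ± 0.13). For N-glycosylation, the STT3 gene Tatro_005411, the catalytic subunit of oligosaccharyl transferase, had 217, 215 and 242 CPM after injury and 492, 417 and 450.2 CPM after grazing (-1.01 ± 0.10). The largest difference of the list was in a folding gene. Calreticulin/calnexin, a lectin chaperone of new glycoproteins, was encoded by Tatro_008807 at 144, 137 and 151 CPM after injury and 462, 435 and 477 CPM after grazing (-1.67 ± 0.15, adjusted p = 7.3e-12). A protein disulphide isomerase gene, Tatro_009798, had 434, 435 and 458 CPM after injury and 1086, 976 and 1113 CPM after grazing (-1.26 ± 0.10), and another, Tatro_010700, differed by -0.86. In the genes given here by library the highest injured library was well under the lowest grazed one. Genes named by rule had to be free of overlap, and the others were chosen after their values were seen, so this separation is a description only.

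Vesicle traffic genes were lower in 23 of 25 cases and higher in 2, with a median log2 difference of -0.62. Their sums were 2551, 2506 and 2518 CPM after injury and 3607, 3622 and 3584 CPM after grazing. The exocyst tethers secretory vesicles at the hyphal tip, and its Sec6 gene Tatro_008180 had 44.5, 53.5 and 43.5 CPM after injury and 89.9, 93.1 and 87.5 CPM after grazing (-0.93 ± 0.13). The Sec10 gene Tatro_010575 of the same complex was lower too (-0.51 ± 0.08). A t-SNARE gene, Tatro_010048, of a family that fuses vesicles with their target membrane, was higher with 237, 211 and 204 CPM after injury and 118, 136 and 128 CPM after grazing (0.77 ± 0.11).

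The cytoskeleton followed the same direction. Of 37 cell cycle and cytoskeleton genes 28 were lower after injury and 7 higher, with a median log2 difference of -0.70 and sums of 10706, 10575 and 10197 CPM after injury against 19053, 18349 and 18467 CPM after grazing. All 6 actin and tubulin family genes, a subset named after the values were seen, were lower. Beta tubulin, Tatro_008989, averaged 979.8 ± 36.2 CPM after injury and 2138 ± 47.1 CPM after grazing (-1.13 ± 0.09), and alpha tubulin, Tatro_003350, 1205 ± 79.4 and 2536 ± 112 CPM (-1.07 ± 0.09). Regulators of actin filaments went with them, the capping protein alpha gene Tatro_001357 by -1.21 ± 0.11 and the depolymerising factor gene Tatro_005840 by -1.21 ± 0.13. An exception was the Ysc84 actin-binding gene Tatro_008588, with 90.6, 73.4 and 76.2 CPM after injury and 24.4, 20.7 and 23.2 CPM after grazing (1.82 ± 0.28).

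Cell wall synthesis was split by gene. The chitin synthase gene Tatro_003420 had 105, 122 and 127 CPM after injury and 58.4, 59.1 and 60.6 CPM after grazing (0.99 ± 0.17). The more abundant chitin synthase gene Tatro_001815 had 598, 568 and 581 CPM after injury and 950.3, 869 and 934 CPM after grazing (-0.66 ± 0.11). Chitinase and family 18 hydrolase genes, whose products cut the same polymer, also divided, with Tatro_004869 (1.73 ± 0.20) and Tatro_001203 (1.58 ± 0.13) higher and Tatro_010133 (-1.67 ± 0.18) and Tatro_006640 (-2.21 ± 0.29) lower.

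Glycoside hydrolase genes were mostly lower after injury. Of 51 glycoside hydrolase genes 41 were lower and 8 higher, with a median log2 difference of -1.23, the lowest of the 30 lists. Their summed level was 5516, 5266 and 5522 CPM after injury and 9507, 9141 and 9257 CPM after grazing, against 7967, 7292 and 6724 CPM in CT0. The CT8 sums of 9611, 8977 and 9201 CPM overlapped the grazed ones, and the injured sums were below both controls. The largest fall of the list was that of a mannosidase, an enzyme that trims glycans. The alpha-1,2-mannosidase gene Tatro_000880 had 5.84, 6.16 and 5.52 CPM after injury and 55.2, 43.6 and 49.8 CPM after grazing (-3.06 ± 0.33, adjusted p = 8.7e-10), and the family 47 gene Tatro_004830 had 10.1, 7.34 and 11.5 CPM after injury and 53.6, 65.4 and 53.9 CPM after grazing (-2.59 ± 0.30). The concanavalin A-like glucanase gene Tatro_002600 was the most abundant of the 12 genes with the largest falls, at 102, 118 and 138 CPM after injury and 823, 685 and 745 CPM after grazing (-2.65 ± 0.28).

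Peptidase genes numbered 59, of which 42 were lower and 11 higher after injury (median log2 difference -0.88). Their sums were 13586, 12561 and 12490.1 CPM after injury and 26183, 26577 and 27393 CPM after grazing. An aspartic peptidase gene, Tatro_004528, gave 0.649, 0.474 and 1.77 CPM after injury and 7.89, 17.4 and 15.2 CPM after grazing, resting on 12 and 102 counts (-3.78 ± 0.61, adjusted p = 3.5e-06). Its CT0 mean was 4.11 CPM, between the groups. Gamma-glutamyltranspeptidase, which breaks down glutathione, was encoded by Tatro_010224 at 15.3, 18 and 18.3 CPM after injury and 136, 127 and 132 CPM after grazing (-2.92 ± 0.24). The carboxypeptidase A gene Tatro_000871 had 72.4, 51.9 and 65.2 CPM after injury and 345, 371 and 327 CPM after grazing (-2.47 ± 0.29). Ubiquitin and proteasome genes pointed the same way, 26 of 36 lower and 8 higher.

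Chaperone genes were more often lower than higher after injury. Of 40 heat shock and chaperone genes 27 were lower after injury and 12 higher, with a median log2 difference of -0.65 and sums of 10618, 10047 and 9972 CPM after injury against 14168, 13722 and 14812 CPM after grazing. The injured sums overlapped the CT0 sums of 11083, 10283 and 8913 CPM, and the grazed sums did not, whereas the CT8 sums of 15161, 15346 and 14819 CPM all lay above the grazed ones. Set against CT0, 15 of the 40 genes were higher after grazing and none was lower by the edgeR test, while 13 were higher and 23 lower after injury. The Hsp90 gene Tatro_010407, a chaperone of kinases and receptors, had 449, 376 and 348 CPM after injury and 1283, 1161 and 1515 CPM after grazing (-1.76 ± 0.25, adjusted p = 3.4e-07).

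The classes below were named after the values were seen. All 3 small heat shock (Hsp20) genes, which hold unfolded proteins in solution, were higher after injury. Tatro_002501 had 192, 161 and 166 CPM after injury and 73.3, 64.7 and 70.7 CPM after grazing (1.32 ± 0.37, adjusted p = 0.0036), and Tatro_005350 and Tatro_009930 differed by 1.08 ± 0.24 and 1.07 ± 0.34. Of 8 Hsp70 genes 2 were higher and 5 lower. The Hsp70 gene Tatro_000891 had 7.79, 7.81 and 5.97 CPM after injury and 46.5, 41.8 and 44.8 CPM after grazing (-2.62 ± 0.42). The 14 DnaJ genes, co-chaperones of Hsp70, were split into 7 higher and 7 lower.

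Antioxidant genes were lower in 27 of 47 cases and higher in 10 (median log2 difference -0.52). The AhpC/TSA peroxiredoxin-type gene Tatro_000396 had 17.5, 28.2 and 17.7 CPM after injury and 162, 152 and 144 CPM after grazing (-2.84 ± 0.17, adjusted p = 1.2e-15). Catalase-peroxidase, which removes hydrogen peroxide, was encoded by Tatro_002100 at 71.8, 85.7 and 89.3 CPM after injury and 282, 297 and 345 CPM after grazing (-1.90 ± 0.15). The abundant catalase gene Tatro_008157 was lower as well, at 248, 222 and 242 CPM after injury and 663, 635 and 645 CPM after grazing (-1.45 ± 0.13).

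A less abundant catalase gene, Tatro_007179, was higher, with 14.3, 15.2 and 21.9 CPM after injury and 7.1, 6.65 and 3.7 CPM after grazing (1.64 ± 0.47, adjusted p = 0.0043). The larva-grazed libraries averaged 122 CPM for it. The catalase gene Tatro_006112 did not pass the test, at 8.12, 7.1 and 6.41 CPM after injury and 2.37, 5.17 and 4.71 CPM after grazing (0.69 ± 0.48, adjusted p = 0.24). The glutathione S-transferase gene Tatro_004065, of a family that conjugates reactive compounds, was higher, with 463, 369 and 374 CPM after injury and 53.6, 55.4 and 54.5 CPM after grazing (2.88 ± 0.28).

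The small calcium signalling list was divided, and the small G-protein signalling list leaned towards higher levels after injury. Among all genes with a product text 43.7% were higher and 43.5% lower. For calcium, 7 of 11 genes were higher and 4 lower. The calcium/proton exchanger gene Tatro_001403, whose family moves calcium into the vacuole in yeast, had 78.6, 78.1 and 74.5 CPM after injury and 34.7, 29.9 and 30.0 CPM after grazing (1.31 ± 0.18). The EF-hand gene Tatro_003395 was higher by 1.20 ± 0.17, and the sodium/calcium exchanger gene Tatro_005194 by 1.26 ± 0.12.

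For G-protein signalling 5 of 6 genes were higher and none was lower by the edgeR test, the sixth being uncalled. The RGS gene Tatro_007094, of a family that switches G-proteins off, had 39.6, 38.6 and 39.3 CPM after injury and 11, 14.8 and 14.8 CPM after grazing (1.48 ± 0.29). Receptor genes were also higher, Tatro_010457 by 1.01 ± 0.23 and Tatro_008852 by 0.98 ± 0.16.

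Of 45 protein kinase and phosphatase genes 24 were higher and 18 lower, a more even split than in the G-protein list. The MAP kinase genes Tatro_000708 (182, 172 and 192 CPM after injury, 257, 237 and 242 CPM after grazing) and Tatro_003677 (83.8, 98.8 and 87.9 against 124, 132 and 128 CPM) were lower, by -0.43 ± 0.09 and -0.51 ± 0.09. The Ssk2/Ssk22-type MAP kinase kinase kinase gene Tatro_005384, of a family that acts in osmotic stress signalling in yeast, was higher, with 219, 266 and 239.5 CPM after injury and 167, 136 and 148 CPM after grazing (0.70 ± 0.09).

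Transcription factor genes were higher in 62 of 111 cases and lower in 38, with a median log2 difference of 0.47. A pair of fungal transcription factor genes was among the largest rises: Tatro_008005 had 510.1, 477 and 542 CPM after injury and 22.9, 15.9 and 25.3 CPM after grazing (4.59 ± 0.28, adjusted p = 1.2e-15), and Tatro_008187 had 64.9, 64.4 and 50.8 CPM after injury and 3.94, 4.44 and 3.37 CPM after grazing (3.93 ± 0.31). The larva-grazed libraries averaged 204 CPM for Tatro_008005 and 15.6 CPM for Tatro_008187. The basic leucine zipper gene Tatro_007800, of a family that includes stress regulators of yeasts, had 52.3, 57.5 and 72.0 CPM after injury and 6.31, 7.02 and 4.38 CPM after grazing (3.39 ± 0.28). By class, named after the values were seen, 16 of 19 C2H2 zinc finger genes were higher and 2 lower, whereas 8 of 24 Zn(2)-C6 genes, the class typical of fungi, were higher and 12 lower.

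Transport and nitrogen metabolism also differed. The phosphate transporter-type gene Tatro_007123 had 468, 399 and 391 CPM after injury and 43.4, 43.6 and 41.8 CPM after grazing (3.29 ± 0.15, adjusted p = 5.2e-19). Of 78 MFS transporter genes, a family of sugar, drug and metabolite carriers, 43 were lower after injury and 21 higher (median log2 difference -0.55). The other transporters were balanced, at 31 higher and 29 lower of 67.

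Genes of amino acid synthesis and breakdown were lower in 28 of 43 cases and higher in 9. The 3-isopropylmalate dehydratase gene Tatro_003592, a step of leucine synthesis, had 105, 147 and 122 CPM after injury and 406, 399.9 and 398 CPM after grazing (-1.69 ± 0.18). The indoleamine 2,3-dioxygenase gene Tatro_001832, which opens tryptophan breakdown, had 35.1, 45.0 and 51.7 CPM after injury and 271, 252 and 277 CPM after grazing (-2.59 ± 0.18). The alanine dehydrogenase gene Tatro_006538 had 14.9, 17.8 and 17.5 CPM after injury and 99.4, 92.0 and 104 CPM after grazing (-2.54 ± 0.26). Against this direction, the 4-aminobutyrate aminotransferase gene Tatro_006322, an enzyme of the GABA shunt, had 169, 151 and 167 CPM after injury and 33.1, 35.5 and 33.0 CPM after grazing (2.25 ± 0.24).

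The AMP-binding enzyme gene Tatro_007096, of a family that activates acids as adenylates, had 11, 5.45 and 9.94 CPM after injury and 74.9, 63.9 and 64.7 CPM after grazing (-2.95 ± 0.38). The early control CT0 lay between, at 31.8 CPM, and grazing stood above CT0 by a log2 difference of 1.21 (edgeR, adjusted p = 0.019).

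Several of these differences were short-lived or reversed at later times. The later group levels come from libraries of their own, while all libraries of the study shared the filter and the estimate of spread. Across all genes, 3980 differed between injury and grazing at 90 min (43.3%, with 21.4% higher and 21.9% lower), 3091 at 4 h (33.6%, with 16.8% on each side) and 1961 at 8 h (21.3%, with 10.6% higher and 10.7% lower). The 8 h count was 1221 without Of_8h replicate 1 and 1277 without MI_8h replicate 2. Among genes with a product text the calls were 63.3% at 90 min (31.3% higher, 32.0% lower), 40.2% at 4 h (19.7% higher, 20.6% lower) and 24.1% at 8 h (10.5% higher, 13.6% lower). Of the 2058 genes higher after injury at 30 min, 1118 were also called higher and 79 called lower at 90 min. Of the 2147 lower genes, 1295 were lower and 55 higher at 90 min. The difference itself changed between 30 min and 8 h for 2943 genes (32.0%, with 15.8% in the higher and 16.2% in the lower direction) and between 30 and 90 min for 1294 genes (14.1%, with 7.32% and 6.76%). Among genes with a text these shares were 66.2% (33.4% and 32.8%) for 8 h and 24.9% (12.9% and 11.9%) for 90 min.

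**Figure D4:**
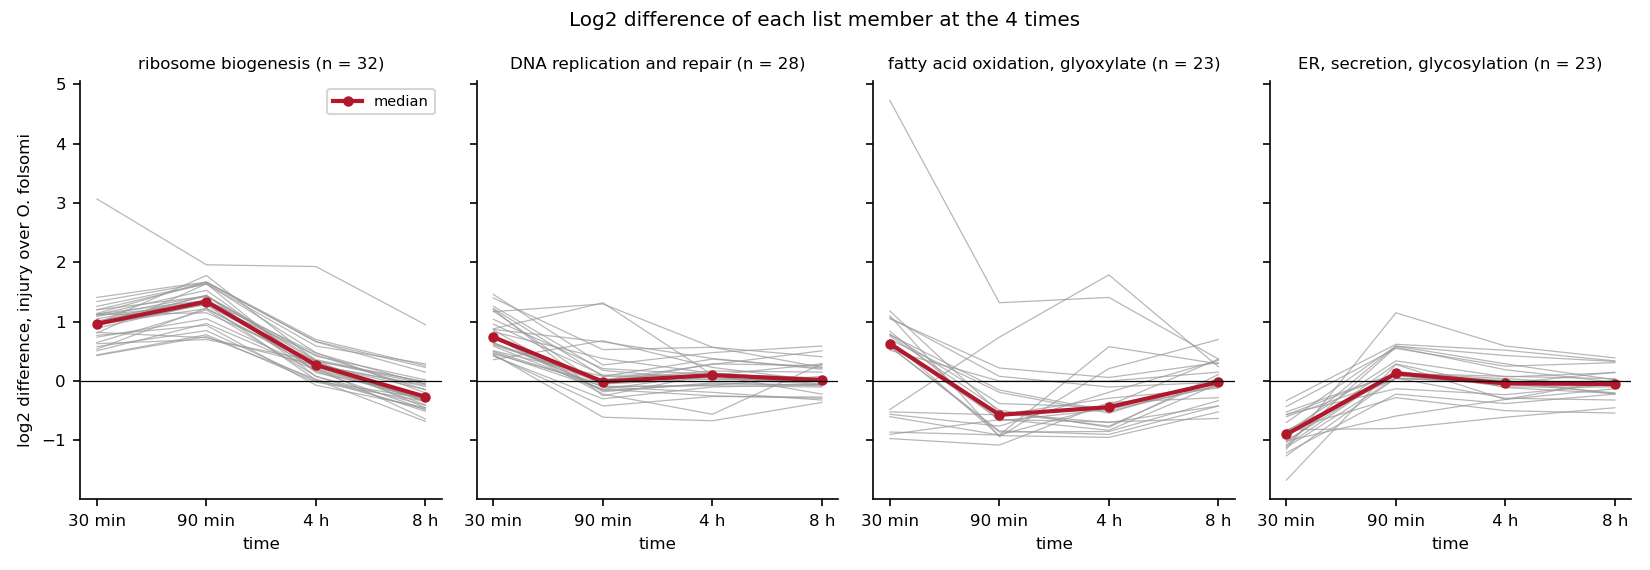
Log2 difference of injury over O. folsomi grazing (vertical axis) for each member (grey lines) and the median (red) of 4 lists at each of the 4 sampling times. The median of the ribosome biogenesis list is 0.96 at 30 min and 1.34 at 90 min, that of the fatty acid list is 0.63 at 30 min and -0.57 at 90 min, and that of the ER list is -0.90 at 30 min and 0.13 at 90 min.

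The fatty acid and glyoxylate list had the opposite direction at 90 min. At 90 min 16 of its 23 genes were lower after injury and 2 higher, with a median log2 difference of -0.57. Of the 16 genes higher at 30 min, 10 were lower at 90 min, 1 was higher and 5 were not called. The test of the difference between the times called 16 of the 23 genes and none in the other direction (edgeR quasi-likelihood, a comparison added after the counts at both times were seen). For the thiolase gene Tatro_007655 the difference between the times was 1.71 (adjusted p = 5e-09), with -0.53 at 90 min, and for the malate synthase gene Tatro_001429 it was 2.04 (adjusted p = 1.5e-05), with -0.94 at 90 min. At 4 h 15 of the 23 genes were still lower after injury and 2 higher.

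The ER and secretion list lost its direction in the same interval. At 90 min 8 of its 23 genes were higher after injury, 2 lower and 13 not called, with a median log2 difference of 0.13. The difference between 30 and 90 min was called for 20 of the 23 genes, -1.95 for the calreticulin/calnexin gene Tatro_008807 and -1.31 for the disulphide isomerase gene Tatro_009798. The stress-associated ER protein gene Tatro_010582 had -1.15 ± 0.22 at 30 min and 1.15 at 90 min (adjusted p at 90 min 7.7e-06).

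The direction of the DNA replication and repair list was also gone at 90 min: 6 of 28 genes were higher and 3 lower at 90 min, with a median log2 difference of -0.01, and 20 of 28 were called in the test of the difference between these times. Ribosome biogenesis genes stayed higher, with all 32 called higher at 90 min and a median of 1.34. At 4 h 6 of the 32 were called higher and at 8 h 1 was higher and 2 lower. Of the 67 ribosomal protein genes 66 were called higher at 90 min, with a median of 0.76, and 2 were called in the test of the difference between 30 and 90 min. The hydrolase lists kept their direction, with 32 of 51 glycoside hydrolase genes and 36 of 59 peptidase genes lower at 90 min, and the cytoskeleton list had 23 of 37 lower.

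**Figure D5:**
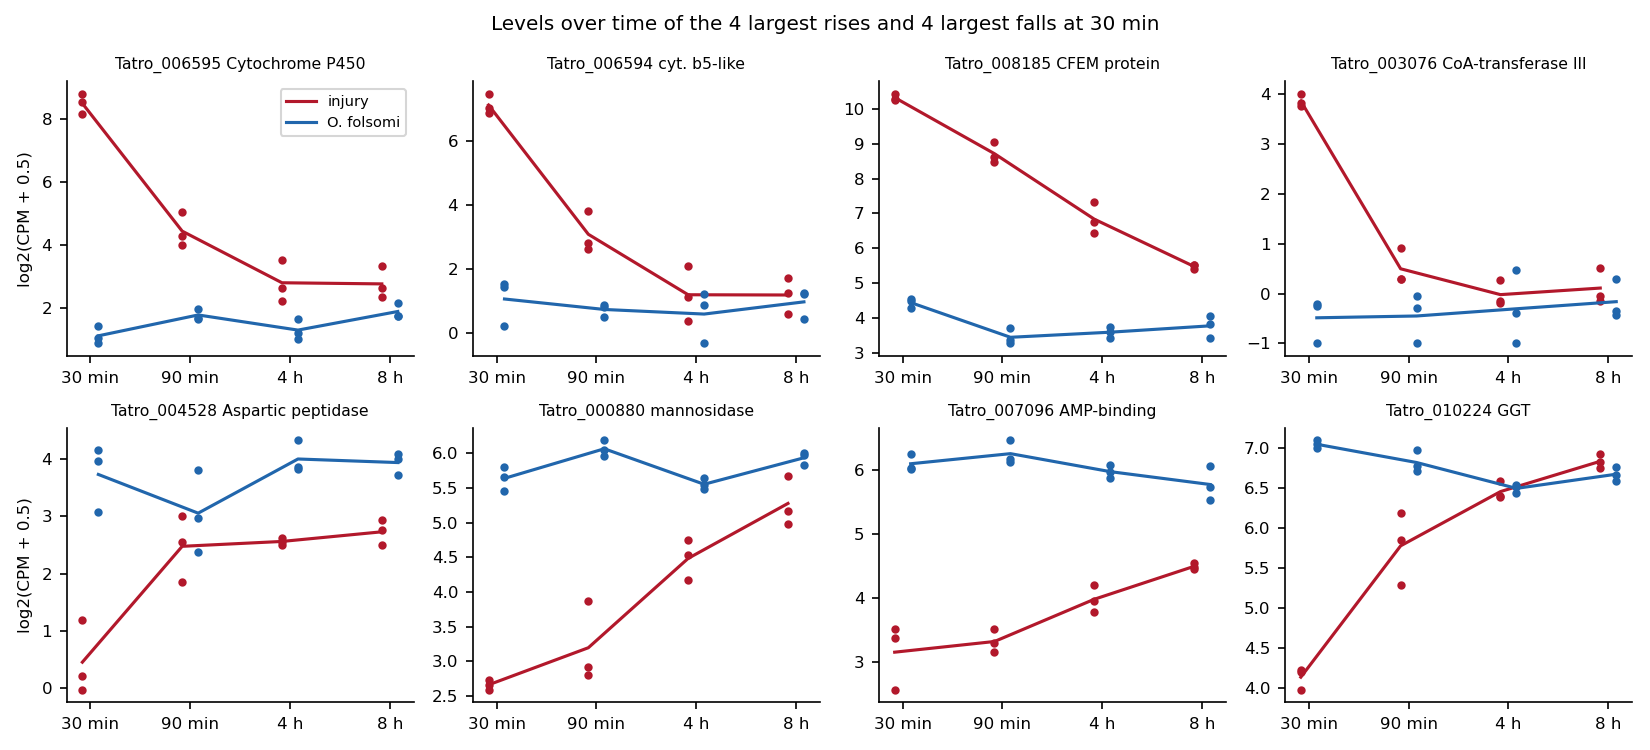
Levels (log2 of CPM + 0.5, vertical axis, one range per panel) at each of the 4 sampling times of the 4 genes with the largest rises (top) and the 4 with the largest falls (bottom) at 30 min, with injured libraries in red, O. folsomi libraries in blue and lines through the means of the points. The P450 gene Tatro_006595 comes down to 22.5 CPM at 90 min, while the CFEM gene Tatro_008185 is still at 44.2 CPM after injury and 13.5 CPM after grazing at 8 h.

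The strongest single rises faded at different rates. The P450 gene Tatro_006595 averaged 22.5 ± 9.02 CPM after injury and 2.98 ± 0.443 CPM after grazing at 90 min (SD, n = 3 each), a log2 difference of 2.94 ± 0.68. At 4 h and 8 h its differences of 1.84 and 0.98 did not pass the test (adjusted p = 0.067 and 0.38). The cytochrome b5-like gene Tatro_006594 likewise differed at 90 min (2.88 ± 0.84) and was not called at 4 h or 8 h. The CoA-transferase gene Tatro_003076 was not called at any later time.

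The CFEM gene Tatro_008185 held longest of these 4, with log2 differences of 5.31 ± 0.30 at 90 min, 3.32 ± 0.28 at 4 h and 1.72 ± 0.30 at 8 h, all called. It averaged 425 ± 92.4 CPM after injury and 10.6 ± 1.88 CPM after grazing at 90 min.

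Among the falls, the AMP-binding gene Tatro_007096 was called at every time, by -2.98 ± 0.37 at 90 min, -2.01 ± 0.33 at 4 h and -1.31 ± 0.32 at 8 h. The mannosidase gene Tatro_000880 was called at 90 min (-2.83 ± 0.29) and 4 h (-1.07 ± 0.25) and not at 8 h (-0.63 ± 0.24, adjusted p = 0.057). The gamma-glutamyltranspeptidase gene Tatro_010224 returned sooner, with 56.2 ± 17.0 CPM after injury and 112 ± 11.3 CPM after grazing at 90 min and 87.4 ± 7.17 against 89.8 ± 3.29 CPM at 4 h. The aspartic peptidase gene Tatro_004528 was not called at 90 min (-0.73 ± 0.48, adjusted p = 0.23) and was called again at 4 h (-1.53 ± 0.40) and 8 h (-1.27 ± 0.41).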

How the data were processed

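Stranded total RNA libraries of 42 mycelial samples were quantified. The authors deposited raw counts per transcript model, made with FastQC 0.11.6, HISAT2 2.1.0 and HTSeq 0.14.1 per the submitters' processing notes; no source used here gives the build, annotation or strand setting, and genes that overlap or have near-identical copies are therefore uncertain. The 12018 models were reduced to 11786 genes, 204 of which had several models with identical counts. No column lacked a sample. Product texts came from the authors' deposited table for injury at 30 min, whose log2 values and p-values as deposited are not reported here.

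The counts were tested in edgeR 4.0.16 (R 4.3.3): TMM scaling, filterByExpr, 1 coefficient for each group over all libraries, quasi-likelihood F tests, Benjamini-Hochberg adjustment over 9193 genes and a threshold of 0.05. The ± of a log2 difference is its SE. CPM uses TMM-scaled totals and is not corrected for gene length, so levels are compared within a gene. Alternatives were DESeq2 1.42.0, RLE factors, totals alone, no filter, the libraries of both groups alone, a replicate block, no Tatro_002410 and leaving out each replicate. The code was tested on simulated data.

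Genes were named by rule among called genes whose libraries did not overlap and whose higher group averaged 10 CPM or more: the 12 largest rises and falls with a text, up to 3 members for each list, the 2 largest rises and falls without a text, and, whatever their call, MAP kinase, NADPH oxidase, Dicer, Argonaute, catalase, lipoxygenase, hydrophobin and CFEM genes. Further members of the lists, and the families singled out within them, were chosen after their values were seen. The groups, lists and word patterns were chosen with earlier results of these data known, and the patterns were trimmed after the texts were read. Lists overlap.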

Additional observations from a re-analysis of the deposited data

Results flagged for a closer look

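The difference between injury and O. folsomi grazing was not the same at 30 min as at 8 h for 2943 genes in the edgeR test of the difference itself. For the genes with the largest rises the log2 difference at 30 min minus that at 8 h was 6.73 for the P450 gene Tatro_006595, 6.18 for the cytochrome b5-like gene Tatro_006594, 4.19 for the CFEM gene Tatro_008185 and 4.87 for the CoA-transferase gene Tatro_003076. For the genes with the largest falls it was -2.51 for the aspartic peptidase gene Tatro_004528, -2.43 for the mannosidase gene Tatro_000880, -1.64 for the AMP-binding gene Tatro_007096 and -3.09 for the gamma-glutamyltranspeptidase gene Tatro_010224.

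Between 30 and 90 min the difference changed for 1294 genes. In the fatty acid list it changed by 3.41 for the 3-hydroxyacyl-CoA dehydrogenase gene Tatro_006592, by 1.71 for the thiolase gene Tatro_007655 and by 2.04 for the malate synthase gene Tatro_001429. The first of these stayed higher after injury at 90 min, with a log2 difference of 1.32, and the other two were lower.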

How the results depend on the processing

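The count of genes called at 30 min was 3568 to 4906 over all alternatives, against 4205, and 3568 to 3897 with a replicate left out. Totals alone gave 1396 lower calls. With a replicate left out the count at 8 h was 1221 to 1789 (1961 with all), and for grazing against CT0 438 to 695 (910 with all). Totals alone also moved the share of higher calls to 67.1% at 4 h, 74.9% at 8 h, 72.7% for the difference between 30 and 90 min and 16.3% for grazing against CT0, against 50%, 49.8%, 52.0% and 62.6% with TMM scaling, with medians of all genes at 0.119, 0.107, 0.13 and -0.193. DESeq2 gave 4111 calls at 30 min.

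Some values near 0 at later times changed sign. With a replicate left out Tatro_003076 at 4 h was -0.15 (without Of_4h replicate 3) to 1.8, Tatro_010224 at 4 h was 0.07 with totals alone, 0.003 and 0.005 without MI_4h replicates 1 and 2 and -0.1 without replicate 3, and Tatro_006594 at 8 h was -0.11 without MI_8h replicate 3, -0.003 without Of_8h replicate 2 and up to 0.6 otherwise. The incompatibility list had a median of -0.27, and of 0.18 with the libraries of both groups alone. The causes were not tested. Of the named genes, Tatro_003494, Tatro_008593 and Tatro_000363 lost their calls under some alternatives.

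No pairing by replicate number was visible: deviations of injured and grazed libraries of the same number correlated at 0.0113, -0.0149 and 0.0366. With 3 libraries per group such values cannot exclude a pairing. With the number as a replicate block 4192 genes were called (2054 higher, 2138 lower). Depth limits genes such as Tatro_003076, Tatro_001938 and Tatro_004528, which rest on few counts in one group.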

Other observations

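Genes without a product text held rises as large as those described. Tatro_004986 had 146, 104 and 96.8 CPM after injury and 1.58, 3.33 and 2.36 CPM after O. folsomi grazing, a log2 difference of 5.46 ± 0.30, and the adjoining Tatro_004987 had 75.3, 43.6 and 45.5 CPM after injury and 1.58, 0.37 and 2.02 CPM after grazing (5.35 ± 0.40). The largest falls without a text were those of Tatro_000890 (-2.18 ± 0.36) and Tatro_006435 (-2.16 ± 0.37). Of the 6328 tested genes without a text, 805 were higher after injury and 901 lower.

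Along the Tatro numbers there were 73 runs of at least 4 successive tested genes all called the same way, 32 higher and 41 lower after injury, and the longest had 7 members. How many such runs the share of calls alone gives was not tested, and positions on chromosomes were not used here. The run that starts at the CFEM gene Tatro_008185 held 4 genes, with log2 differences of 5.91, 3.8 for Tatro_008186, 3.93 for the transcription factor gene Tatro_008187 and 1.12 for the ATP-cone gene Tatro_008189. The catalase gene Tatro_007179 lay in a run with an aminoglycoside phosphotransferase-type gene, Tatro_007177 (2.39), and a methyltransferase gene, Tatro_007178 (1.95). A run of 7 lower genes held a glucose/ribitol dehydrogenase gene, Tatro_002808 (-1.65), an isopropylmalate dehydrogenase gene, Tatro_002809 (-2.17), and an amidase gene, Tatro_002812 (-1.96).

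For 2695 of the 4205 genes called at 30 min the CT0 mean stood between the injured and the grazed mean, and for 2159 the CT8 mean did.

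The SUR7, MARVEL and other membrane domain genes, the ankyrin repeat genes and the incompatibility and NACHT genes were divided: 9 of 16, 20 of 38 and 10 of 23 were higher, and 5, 10 and 10 were lower. Of 5 glycolysis genes 4 were lower after injury, among them enolase, Tatro_007415, at 1139, 1075 and 1052 CPM after injury and 1818, 1708 and 1739.9 CPM after grazing (-0.69 ± 0.10). The hexokinase genes differed in direction, Tatro_001317 by 1.19 ± 0.21 and Tatro_008816 by -1.05 ± 0.11.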
